A study of Mus musculus with 37 samples.

Results

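Processed pseudogenes are copies of messenger RNAs that were reverse transcribed and inserted back into the genome. They lack the introns of the gene they came from, here called the parent gene, and usually its promoter. In mouse oocytes such copies are known both as transcribed sequences and as a source of small interfering RNAs that pair with the parent messenger RNA. The genes described here are 720 processed pseudogenes with reads in oocytes, taken from 2826 genes annotated as processed pseudogenes among the 25053 genes of the ZH table. Symbols that begin with Rpl or Rps were left out (2660 remained), the gene had to be listed in the tables of CabZ 2-cell embryos and of Zscan4-injected embryos as well (1269), and its mean over the 8 ZH libraries had to reach 1 FPKM (reads scaled to gene length and to the size of the library). The level in the ZH libraries therefore chose the pseudogenes, and their levels there are given as a description. Just inside the limit were Gm12219 and Gm4823, with means of 1.01 FPKM each, and just outside were Gm12033 and Gm9621, with means of 0.984 FPKM each.

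All libraries came from C57BL/6 mice. ZH females carried a floxed Hira allele and CabZ females a floxed Cabin1 allele, each deleted in growing oocytes by Cre recombinase under the oocyte promoter Zp3; Hira and Cabin1 are subunits of the chaperone that places histone H3.3 outside replication. Germinal vesicle (GV) oocytes, the fully grown oocytes before maturation, were compared between KO and Het littermates of each line, and 2-cell embryos between CabZ mothers of either genotype, mated with C57BL/6 males, with 4 libraries per group. The Het controls carried Zp3-Cre and 1 floxed allele, so that 1 allele was deleted in their oocytes too. Ages are not given in the sources used here. In the fourth comparison, wild-type GV oocytes had been injected with Zscan4d RNA (3 libraries) or GFP RNA (4 libraries), matured and activated without sperm to the 2-cell stage. The methods state that oocytes were pooled for each library, whereas the sample records speak of single cells, and no source says which libraries share a mother, so p-values measure the spread between libraries.

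Hira itself was too low to check the ZH labels, since 2 to 14 reads fell on it in ZH Het and 0 to 13 in ZH KO. Cabin1 was 0.0891 to 0.159 FPKM in CabZ Het and 0.0125 to 0.0482 FPKM in CabZ KO oocytes, and 0.229 to 0.455 against 0.064 to 0.181 FPKM in the 2-cell embryos, without overlap. These falls were not particular to the deleted gene, since Cabin1 was also lower in ZH KO (0.064 to 0.102 FPKM) than in ZH Het (0.259 to 0.346 FPKM), and Hira lower in CabZ KO (8 to 32 reads) than in CabZ Het 2-cell embryos (143 to 199 reads). Zscan4d was not higher in the embryos labelled Zscan4 OE (70.3 to 84.3 FPKM) than in GFP embryos (69.4 to 149 FPKM). Whether injected RNA is counted at this gene was not tested, so this value does not check the label, and those libraries are called the libraries labelled Zscan4 OE. All 10 oocyte markers were detected in every table, and no cumulus or granulosa cell marker reached a mean of 1 FPKM in either GV table (highest single value 1.53 FPKM). Reads on the genes of each table ranged from 8996898 to 15082557 in ZH, from 9115866 to 12468934 in CabZ GV oocytes, from 5819314 to 8239524 in CabZ 2-cell embryos and from 9885415 to 21869858 in the injected embryos. In both CabZ tables every KO library was shallower than every Het library.

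The 720 pseudogenes had a median length of 657 bases and lay on every chromosome except Y. Most (517) overlapped no other annotated gene, 166 lay in an intron of another gene and 37 overlapped an exon of one. Libraries were not stranded, so reads of these pseudogenes cannot be told apart from reads of the overlapping gene, which lay on the same strand for 78, on the opposite strand for 84 and on both for 4 of the intronic ones, and for 7, 30 and none of the exonic ones. Of the pseudogenes described here, Gm14494 lies in an intron of Efcab8, Gm15542 of Psmd13, Gm12226 of Meikin, Gm4459 of Cfap46, Gm12418 of Cntln, Gm7658 of Kcnq5, Gm3470 of Prkg2 and Dnajc19-ps of Olfr66, all on the same strand. Gm10052 (Ccr9), Gm5552 (Dnajb6) and Gm19219 (Gm39363) lie in an intron on the opposite strand. Gm15590 overlaps an exon of Gm22774 on its own strand, and Hsp25-ps1 (Gm9817), Gm15459 (Gm26825), Gm14048 (A730017L22Rik) and Gm17950 (Gm29387) overlap an exon on the other strand. Their median level over the ZH libraries was 8.35 FPKM, 332 reached 10 FPKM and 55 reached 100 FPKM. The 10 highest took 21.3% of all reads on the 720.

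The parents of those 10 have roles in chromatin, translation, the cell cycle, metabolism and protein folding. Gm4739, a copy of the chromatin protein gene Hmgb2, was the highest with a mean of 553 FPKM. Gm6863 followed with 531 FPKM and is a copy of Naca, a subunit of the complex that meets nascent chains at the ribosome. Ccnb1-ps, a copy of the cyclin B1 gene of the meiotic cell cycle, had 444 FPKM. Gm12463, with 326 FPKM, is a copy of the germline kinase gene Aurkc. Others derived from Oser1 (Gm12226, 437 FPKM), the co-chaperone gene Dnaja1 (Gm15542, 358 FPKM), the lactate dehydrogenase gene Ldhb (Gm5514, 314 FPKM), the chaperone gene Hspa8 (Gm15459, 306 FPKM) and the respiratory chain gene Ndufab1 (Gm4459, 291 FPKM). Each was 98.0 to 99.8% identical to its parent. In ZH KO oocytes Gm15542 rose (228 ± 15.1 to 489 ± 132 FPKM, SD, n = 4, limma adjusted p = 0.00242), and none of the other 9 reached a fold of 2. Gm15542 fell short of that fold when the libraries were shifted to a common median (log2 change 0.905). It also did so without ZH KO replicate 1 (0.986) or replicate 4 (0.933).

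A parent was assigned by aligning each pseudogene, read from the GRCm38 genome, to the spliced transcripts of protein-coding genes with introns. Of the 720, 700 aligned over at least 50% of their length, to 547 parent genes. The median identity was 98.3%, 246 pseudogenes were at least 99% identical, 58 were identical over the aligned part, and 130 were under 95%. For 428 at least 1 stretch of 150 bases, the length of 1 sequencing read, was the same in pseudogene and parent, and for 54 every such stretch was. Gapdh had 11 copies among the 720, Eif1 and Npm1 had 6 each, and H3f3a and Rpl6 had 5 each.

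The sequences below show what the reads had to tell apart. Each line gives the 30-base stretch, without gaps, in which pseudogene and parent differ most, 5′ to 3′ on the coding strand, with the differing bases in capitals; where nothing differs the first 30 aligned bases are shown. Gm10123 and Gm10052 are shown as copies without a differing base in any such stretch. Gm14494 and Hsp25-ps1 are shown as copies with few differences. The remaining 4 are diverged copies whose changes did not follow the parent in at least 1 comparison.
Gm10123, chr9:96895658-96895687, plus strand: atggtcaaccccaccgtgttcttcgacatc
Ppia, its parent: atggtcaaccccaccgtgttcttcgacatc
Gm10052, chr9:123690163-123690192, minus strand: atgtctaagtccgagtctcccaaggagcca
Hnrnpa1, its parent: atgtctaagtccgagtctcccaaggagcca
Gm14494, chr2:153826204-153826233, plus strand: gtgtgcggtgccctcttcatcgggtactgT
Tomm20, its parent: gtgtgcggtgccctcttcatcgggtactgC
Hsp25-ps1, chr13:45078567-45078596, minus strand: acgcagtcagcggagatcaccattccgAtC
Hspb1, its parent: acgcagtcagcggagatcaccattccgGtT
Gm9435, chrX:14955127-14955156, minus strand: accCgTgAtcCAagAtttccctAacaaaTA
Rpl6, its parent: accTgCgCtcTCagTtttccctGacaaaCG
Gm45007, chr7:73706397-73706426, minus strand: accagGcacAAaTgtgtgggcTcAaccAcT
H2afz, its parent: accagCcacGGaCgtgtgggcGcGaccGcC
Gm12420, chr4:84698200-84698229, plus strand: tTCcGatcgtctCtgTtgTgcCgctcCacA
Serinc3, its parent: tCTcCatcgtctTtgCtgCgcTgctcTacG
Gm12633, chr4:90359638-90359667, minus strand: GcACgTgaGgTGCcatATtGaagcaTCaTT
Zfp352, its parent: TcTGgAgaAgAAAcatGCtCaagcaCAaCC
In these stretches Gm14494 differs from Tomm20 at 1 base and Hsp25-ps1 from Hspb1 at 2, while Gm9435, Gm45007 and Gm12420 differ from their parents at 8 or 9 and Gm12633 from Zfp352 at 15.

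Whether reads were divided between similar sequences can be read from low values, which equal whole numbers of reads where each read was given to 1 gene. In the ZH libraries this held (within 0.03 reads, for values up to 30 reads) for 88.6 to 89.8% of low values of protein-coding genes but for 30.8 to 41.2% of those of the 720 pseudogenes. Among the pseudogenes the share rose as identity to the parent fell. Its median over the 8 libraries was 10.8% at 99% identity or more, 18.4% at 97 to 99%, 29.5% at 95 to 97% and 66.3% under 95%. How the authors divided reads that align to several places is not stated, so levels of near-identical copies are uncertain as levels of 1 locus. Per length, with the parent's reads divided by its exons, the median pseudogene had 57.9% of its parent's level in ZH Het oocytes, and 259 of 689 pairs had a higher value for the pseudogene.

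**Figure D1:**
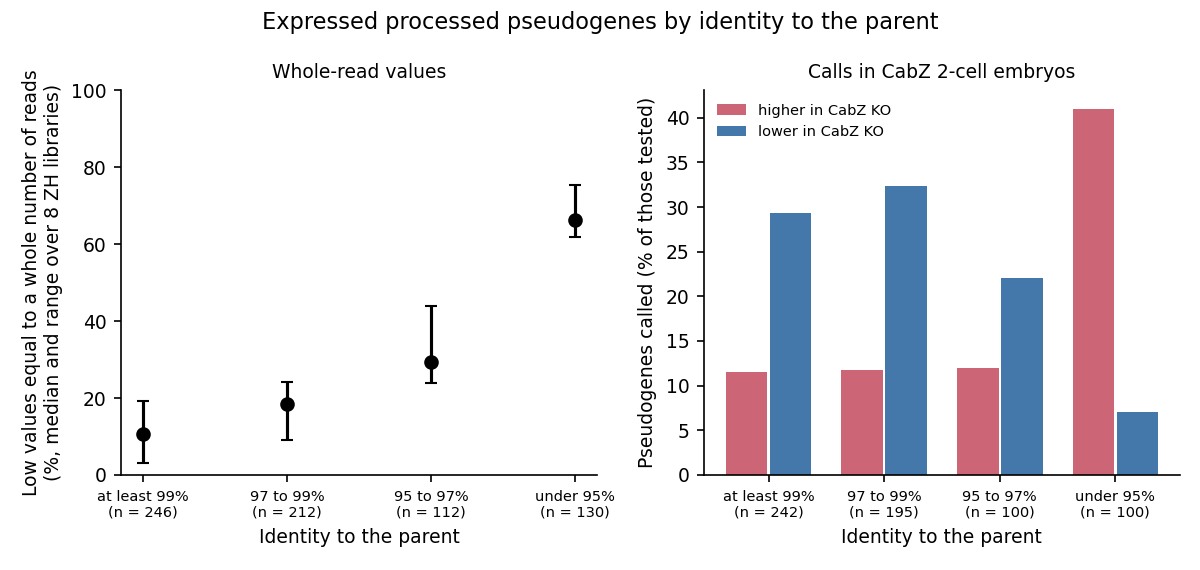
Left, percentage of low values of pseudogenes that equal a whole number of reads, by identity to the parent (points, median over the 8 ZH libraries, bars, lowest and highest library); the median rises from 10.8% to 66.3% as identity falls. Right, percentage of tested pseudogenes called higher (red) or lower (blue) in CabZ KO than in CabZ Het 2-cell embryos, by the same classes; in the class under 95%, 41 of 100 were higher and 7 lower.

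The 720 pseudogenes together took shares of reads that are given here by group (716 of them in the CabZ GV table). In ZH Het oocytes the share was 1.98% ± 0.09 (SD, n = 4) of the reads on genes and in ZH KO oocytes 2.56% ± 0.21 (SD, n = 4), with every KO library (2.29 to 2.74%) above every Het library (1.89 to 2.10%). CabZ Het and CabZ KO oocytes had 1.99% ± 0.03 and 2.07% ± 0.15 (SD, n = 4 each), which overlapped. In the CabZ 2-cell embryos the share was 2.33% ± 0.27 in Het and 1.76% ± 0.13 in KO (SD, n = 4 each), with every KO library (1.60 to 1.88%) below every Het library (2.06 to 2.62%). The embryos injected with GFP had 2.13% ± 0.07 (SD, n = 4) and those labelled Zscan4 OE 1.97% ± 0.20 (SD, n = 3), which overlapped. Since the members were chosen on the ZH libraries, these shares carry no test. Fewer cells and less RNA per cell cannot be told apart in such bulk libraries.

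**Figure D2:**
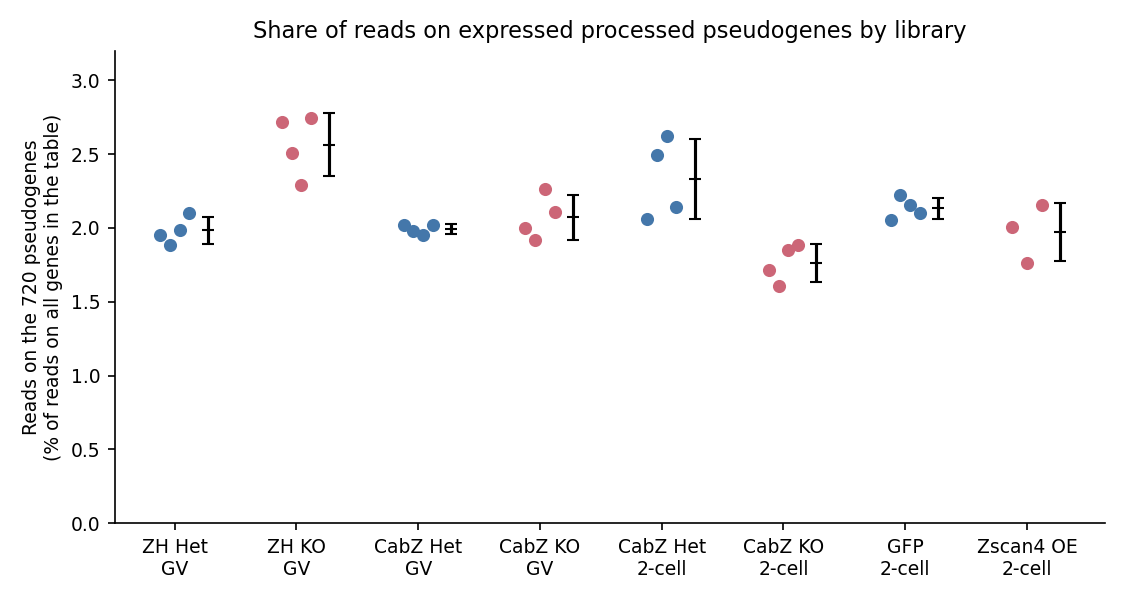
Reads on the 720 pseudogenes as a percentage of reads on all genes of the table, 1 point per library, with mean ± SD beside each group (blue, Het or GFP; red, KO or Zscan4 OE). ZH KO lies above ZH Het, and CabZ KO 2-cell embryos lie below CabZ Het, without overlap.

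Each comparison was then tested gene by gene with limma on log2(FPKM + 1), over all genes with a mean of 1 FPKM or more in the table. A gene was called when its p, adjusted by the method of Benjamini and Hochberg over all genes tested, was under 0.05 and its fold above 2 on that scale, which understates the change of low genes. In ZH KO oocytes 107 of the 720 pseudogenes rose (14.9%), against 10.5% of the 5792 genes tested, and 39 fell (5.42%), against 7.2% of all. Median log2 changes were 0.20 for the pseudogenes and -0.04 for all genes. Shifting the libraries to a common median gave 83 risen and 61 fallen pseudogenes, with a median of 0.05 for the pseudogenes and -0.19 for all genes, and scaling to the reads of the table gave 151 and 29. Over all genes these scalings turned 606 risen and 417 fallen into 471 and 627, and into 958 and 372. Every pseudogene passed the filter here because the same mean had chosen them: 59 had a ZH Het mean under 1 FPKM and entered through the KO libraries, and 24 of these were among the 107. Without the fold limit 358 pseudogenes passed (49.7%, against 51.9% of all genes), and the 4 KO values lay above the 4 Het values for 204 (23.7% of all genes) and below them for 106 (23.2% of all genes). The summed level of 7 markers of the 2-cell embryo was 3.86 to 5.33 FPKM in ZH Het and 112 to 186 FPKM in ZH KO, and that of the 10 oocyte markers 3131 to 3412 and 1889 to 2481 FPKM. That of 11 cumulus and granulosa markers was 0.381 to 0.702 and 0.993 to 2.42 FPKM, with 3 of the 11 higher in every KO than in every Het library and, in each group, 2 at 0 in all 4 libraries. Their part in the changes of the pseudogenes was not tested.

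The largest rise in ZH KO oocytes was that of Gm45007, a copy of the H2A.Z histone gene H2afz (chr7:73706175-73706540, 83.4% identical). In ZH Het oocytes 1 library had 1 read on it and the other 3 had none, whereas the KO libraries had 13.1, 8.0, 7.0 and 11.8 FPKM, that is, 75, 47, 34 and 59 reads. Gm45007 therefore entered the selection through the KO libraries alone, so its log2 change of 3.35, which also depends on the added 1, is given without a p-value. H2afz rose too, from 13.5 ± 5.3 to 137 ± 22.3 FPKM per exon length (SD, n = 4), a log2 change of 3.31.

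Gm14494, a copy of Tomm20, the receptor for protein import on the outer mitochondrial membrane (chr2:153826171-153826605, 99.5% identical), had 8.44, 5.94, 11.6 and 10.2 FPKM in ZH Het and 89.3, 55.4, 87.8 and 79.2 FPKM in ZH KO (log2 change 2.99 ± 0.22, SE, adjusted p = 9.37e-06). Every KO value lay above every Het value, and Tomm20 moved in the same direction by 2.53. Gm10355 and Gm4535, both copies of the Ran-binding factor gene Rangrf, rose from 1.84 ± 0.229 to 20.2 ± 5.67 FPKM and from 2.54 ± 0.806 to 22.2 ± 4.24 FPKM (SD, n = 4), beside a rise of 3.05 for Rangrf. Gm15590, a copy of Ftl1-ps1, a ferritin light chain gene that the annotation lists as protein-coding, had 0.234 ± 0.173 FPKM in Het and 6.41 ± 0.781 FPKM in KO (SD, n = 4; log2 change 2.59). Bambi-ps1 was the only one of these 6 whose parent had too few reads to be tested. It had 0.121, 0.526, 0.408 and 0.166 FPKM in Het and 5.31, 7.79, 6.11 and 10.8 FPKM in KO (log2 change 2.67), while Bambi, a pseudoreceptor of transforming growth factor signalling to which it is 88.6% identical, changed by 0.48. Gm15590 and Bambi-ps1 too were selected through the KO libraries alone and are given without a p-value.

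Among those that fell, AC113125.1, a copy of the actin-bundling protein gene Lcp1, had 81.5, 108, 97.1 and 74.3 FPKM in ZH Het and 9.0, 19.9, 59.5 and 15.4 FPKM in ZH KO (log2 change -2.08 ± 0.45, SE, adjusted p = 0.00418). The groups did not overlap, although 1 KO library lay close to the Het range, and Lcp1 itself changed by 0.71. Gm15476, a copy of the zinc finger gene Zfp707 with 80.7% identity, went from 24.1 ± 9.34 to 6.53 ± 3.4 FPKM (SD, n = 4; log2 change -1.79, adjusted p = 0.00319), beside a parent change of 0.56. Rab7-ps1, Gm3470, Sms-ps and Dnajc19-ps fell by 1.64 to 1.70 on the log2 scale. These are copies of the late endosome GTPase gene Rab7, of the RNA-binding protein gene Rbpms2, of the spermine synthase gene Sms and of the mitochondrial import co-chaperone gene Dnajc19, and their parents' changes were -1.74, -1.46, -1.29 and -1.33.

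CabZ KO oocytes gave a smaller change. Of 670 pseudogenes tested, 29 rose (4.33%, against 2.07% of the 6339 genes tested) and 6 fell (0.896%, against 0.836%), and the median log2 change was -0.0013 for the pseudogenes and -0.02 for all genes. Without the fold limit 86 passed (12.8%, against 13.9% of all genes), and the KO values lay wholly above the Het values for 77 (11.2% of all genes) and wholly below them for 34 (9.39% of all genes). A further 46 were in the table but too low to be tested. Of the 670, 14 had a Het mean under 1 FPKM and so entered through the KO libraries, 5 of them among the 29, and of the 644 with both means at 1 FPKM or more, 24 rose and 6 fell. The summed level of 7 markers of the 2-cell embryo was 6.41 to 7.91 FPKM in CabZ Het and 27.1 to 52.1 FPKM in CabZ KO oocytes, that of the 10 oocyte markers 4002 to 4786 and 3708 to 3789 FPKM, and KO libraries were shallower than Het libraries, all without overlap. Their part in the changes was not tested. The largest log2 change was again that of Gm45007, with 0, 0.246, 0.246 and 0 FPKM in Het and 3.55, 4.77, 7.98 and 5.99 FPKM in KO (2.51, without a p-value since it passed the filter through KO alone), while H2afz changed by 1.17. Gm9435, a copy of the ribosomal protein gene Rpl6 on the X chromosome (chrX:14955098-14955974, 90.7% identical), had 6.13, 6.99, 4.21 and 4.90 FPKM in Het and 9.68, 37.9, 27.7 and 31.4 FPKM in KO (log2 change 1.95 ± 0.35, SE, adjusted p = 0.00579). The groups did not overlap, but 1 KO library was far below the other 3. Rpl6 changed by -0.03.

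Gm12633, a copy of Zfp352, a zinc finger gene known from the 2-cell stage (chr4:90359622-90361326, 81.9% identical), had 16.2, 26.7, 32.4 and 28.4 FPKM in CabZ Het and 67.4, 125, 96.1 and 111 FPKM in CabZ KO oocytes (log2 change 1.91 ± 0.24, SE, adjusted p = 0.000805). Zfp352 was under 0.1 FPKM per exon length on average in both groups. In the ZH oocytes Gm12633 had 25.2 ± 6.61 FPKM in Het and 26.8 ± 3.95 FPKM in KO (SD, n = 4), a log2 change of 0.11 (adjusted p = 0.655). Gm10054 (a copy of Rps23), Gm33700 (chr9:98888211-98888907, no parent assigned) and Vmn2r-ps61 (a copy of the vomeronasal receptor gene Vmn2r77) rose by 1.52, 1.48 and 1.47 on the log2 scale, with no overlap between the groups.

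The 6 that fell in CabZ KO oocytes included Gm7832, a copy of the mitochondrial channel gene Vdac2, with 24.9, 34.1, 26.3 and 26.7 FPKM in Het and 8.06, 7.09, 6.64 and 7.0 FPKM in KO (log2 change -1.81 ± 0.12, SE, adjusted p = 2.73e-05). Vdac2 changed by -1.86. Hsp25-ps1, Gm19219, Dnajc19-ps, Gm11914 and Gm13611 fell by 1.00 to 1.21 on the log2 scale. Gm19219, a copy of the phosphatase subunit gene Ppp2r2a with 77.0% identity, fell while its parent changed by -0.13, and the other 4 parents changed by -0.66 to -1.60.

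Of the 29 pseudogenes that rose in CabZ KO oocytes, 22 (75.9%) also rose in ZH KO oocytes, which is 20.6% of the 107 there. The control libraries of the lines were separate, but the ZH libraries chose the pseudogenes. Through the KO libraries alone entered 24 of the 107 and 5 of the 29. The matching share over all genes was not worked out, so this overlap is only a description. Dnajc19-ps and Gm7832 fell in both lines. Hsp25-ps1 and Gm11914 were called in opposite directions. Hsp25-ps1, a copy of the small heat shock protein gene Hspb1, had 1.92, 3.45, 1.38 and 2.60 FPKM in ZH Het and 12.7, 18.2, 10.0 and 19.2 FPKM in ZH KO, but 10.5, 6.81, 8.38 and 8.0 FPKM in CabZ Het and 2.90, 2.67, 3.96 and 2.73 FPKM in CabZ KO. Gm11914, a copy of the nucleosome-binding protein gene Hmgn5, had 8.51, 6.17, 5.92 and 8.20 FPKM in ZH Het and 37.4, 23.8, 27.9 and 21.9 FPKM in ZH KO, against 14.2, 13.2, 10.7 and 9.58 FPKM in CabZ Het and 4.29, 7.62, 4.21 and 5.17 FPKM in CabZ KO. In each line the groups did not overlap, and Hspb1 and Hmgn5 moved with their copies (log2 changes of 1.88 and 1.78 in ZH, -1.60 and -0.66 in CabZ).

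In CabZ KO 2-cell embryos, 112 of 653 pseudogenes tested rose (17.2%, against 16.9% of the 7798 genes tested) and 164 fell (25.1%, against 20.4%), with median log2 changes of -0.26 for the pseudogenes and -0.11 for all genes. With a common median the numbers were 142 and 122, and the medians -0.02 and 0.13, while over all genes 1320 risen and 1594 fallen became 1757 and 1126. Without the fold limit 368 passed (56.4%, against 56.1% of all genes), and the KO values lay wholly above the Het values for 131 (22.9% of all genes) and wholly below them for 198 (28.1% of all genes). A further 67 were too low to be tested. Of the 653, 32 had a Het mean under 1 FPKM, 20 of them among the 112 risen, and 18 had a KO mean under 1 FPKM, 8 of them among the 164 fallen; of the 603 with both means at 1 FPKM or more, 92 rose and 156 fell. Oocyte markers stood higher in the KO embryos: 8 of the 10 had every KO value above every Het value, 5 of the 10 were called higher, and their summed level was 415 to 983 FPKM in KO against 143 to 225 FPKM in Het. Their part in the changes of the pseudogenes was not tested.

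Copies close to the parent and diverged copies are given separately here, with no test between the classes. Of 537 tested pseudogenes with at least 95% identity, 63 rose (11.7%) and 156 fell (29.1%), and their median log2 change of -0.43 was near the parents' median of -0.60. Of 100 tested pseudogenes under 95% identity, 41 rose (41%) and 7 fell (7%), with a median of 0.74 against a parents' median of -0.41. With a common median the 2 classes had 90 risen and 118 fallen, and 44 risen and 3 fallen. Some diverged copies passed the filter only through the KO libraries: 15 of the 100 had a Het mean under 1 FPKM and 13 of those were among the 41, while of the 84 with both means at 1 FPKM or more, 28 rose and 7 fell. In CabZ KO oocytes the diverged class had 17 risen and 1 fallen of 115, and the class of at least 95% identity 10 and 5 of 542. Over all genes 2.07% rose and 0.836% fell there. Of the 17, 4 passed the filter through the KO libraries alone, as did 1 of the 10. Of the 108 diverged copies with both means at 1 FPKM or more, 13 rose and 1 fell.

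Gm12633 rose most in the 2-cell embryos. It had 0.147, 0.0738, 0 and 3.99 FPKM in CabZ Het and 18.3, 15.9, 22.1 and 25.7 FPKM in CabZ KO (log2 change 3.75 ± 0.48, SE), while Zfp352 had 127 ± 36.7 and 128 ± 53.2 FPKM per exon length (SD, n = 4). The Het libraries had 2, 1, 0 and 56 reads on Gm12633, so its Het mean reached 1 FPKM through replicate 4 alone and no p-value is given. Gm33700 had 0.361, 1.99, 0.539 and 0.697 FPKM in Het and 26.2, 12.8, 12.5 and 11.1 FPKM in KO (log2 change 3.12). Its Het mean was under 1 FPKM, so it passed the filter through KO alone and no p-value is given. Both were at 12 FPKM or more on average in the ZH and CabZ GV oocytes, so the low values were those of the Het 2-cell embryos, although levels in tables that were normalised separately are only roughly comparable.

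Gm5321, a copy of the ribosomal protein gene Rps18 with 92.2% identity, was listed at 0 in all 4 Het libraries and had 11.1, 13.2, 3.53 and 2.69 FPKM in KO, at least 9.13-fold higher when 3 reads per library are taken as the limit for Het. Rps18 fell, from 16.4 ± 2.26 to 6.43 ± 2.25 FPKM per exon length (SD, n = 4; span-based adjusted p = 0.0021). Gm6018 (a copy of the spindle checkpoint gene Mad1l1), Gm7823 (a second copy of Lcp1) and Gm17950 (a copy of Dph7, of the diphthamide pathway) had log2 changes of 3.05, 2.88 and 2.77, and their parents changed by 0.20, 1.38 and -1.43. Gm5321, Gm7823 and Gm17950 passed the filter through the KO libraries alone. For Gm6018 the Het libraries had 0, 1.25, 0 and 5.02 FPKM and the KO libraries 7.73, 14.2, 24.4 and 17.9 FPKM.

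The 6 pseudogenes that fell most in the 2-cell embryos were 98.0 to 100% identical to parents that fell as well. Gm11221, a copy of the ribosomal RNA processing gene Fcf1, had 268, 308, 410 and 248 FPKM in Het and 29.6, 26.1, 60.1 and 22.7 FPKM in KO (log2 change -3.20 ± 0.31, SE, adjusted p = 0.000174), beside -3.20 for Fcf1. Gm12418 (a copy of the ribosomal RNA methylase gene Dimt1), Smt3h2-ps4 (Sumo2), Gm7658 (the translation factor gene Eif3m), Gm14048 (the proteasome gene Psmd11) and Gm14567 (the RNA polymerase II gene Polr2k) fell by 2.57 to 3.10 on the log2 scale.

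The libraries labelled Zscan4 OE differed little from GFP in these genes. Of 516 pseudogenes tested, limma called none higher and 3 lower (0.581%, against 1.42% of the 4293 genes tested), and at an unadjusted p under 0.05, 42 were higher and 56 lower. Of all genes 0.0233% were called higher, and a common median gave 1 pseudogene higher and 2 lower. Without the fold limit 8 passed (1.55%, against 1.79% of all genes), and the libraries labelled Zscan4 OE lay wholly above GFP for 20 (7.71% of all genes) and wholly below for 46 (10.5% of all genes). The other 204 were too low to be tested. The 3 were Gm11914 (60.6 ± 2.39 FPKM, n = 4, against 26.5 ± 9.05, n = 3, SD; limma adjusted p = 0.0424), Gm12254, a copy of Rpl24 (3.76 ± 1.02 against 0.976 ± 0.522 FPKM, which passed the filter through GFP alone), and Gm13034, a copy of the chromatin remodeller gene Smarca5 (3.45 ± 0.504 against 1.18 ± 0.328 FPKM, limma adjusted p = 0.0238). None of the 3 kept its call when replicate A, B or C of GFP or replicate A of Zscan4 OE was left out. Leaving out replicate D of GFP, or replicate B or C of Zscan4 OE, removed the calls of 2 of the 3.

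Across the 720 pseudogenes, 275 were called in 1 comparison, 70 in 2, 15 in 3 and 360 in none. Such counts were not made over all genes. Of all genes, 10.5% were called higher and 7.2% lower in ZH, and 2.07% and 0.836% in CabZ oocytes. The shares were 16.9% and 20.4% in CabZ 2-cell embryos, and 0.0233% and 1.42% in the injected embryos. Among the pseudogenes called in several comparisons, those with the largest summed changes included diverged copies that rose in all 3 deletion comparisons. Gm9435 had 4.26, 3.55, 4.68 and 4.32 FPKM in ZH Het and 37.7, 24.4, 22.4 and 32.0 FPKM in ZH KO (log2 change 2.51 ± 0.17, SE, adjusted p = 7.74e-06), and 4.16, 1.72, 1.14 and 2.49 FPKM against 9.56, 8.01, 14.0 and 10.4 FPKM in the CabZ 2-cell embryos (1.82 ± 0.29, SE, adjusted p = 0.000843). Rpl6 changed by 0.05 in ZH and by -1.54 in the 2-cell embryos. Gm12420, a copy of the membrane protein gene Serinc3 (chr4:84697863-84698910, 90.3% identical), rose from 1.35 ± 0.567 to 12.3 ± 3.49 FPKM in ZH, from 2.73 ± 0.811 to 8.54 ± 1.0 FPKM in CabZ oocytes and from 0.299 ± 0.598 to 2.22 ± 0.713 FPKM in CabZ 2-cell embryos (SD, n = 4), where Serinc3 fell by 1.88 on the log2 scale. Gm45007 rose from 2.73 ± 1.11 to 6.82 ± 2.68 FPKM in the 2-cell embryos (SD, n = 4; adjusted p = 0.011), where H2afz changed by -0.96. Gm7823, Gm33700, Gm15590 and Gm10054 also rose in all 3, whereas Rps23, the parent of Gm10054, fell by 1.82 in the 2-cell embryos. Gm12420 passed the filter in the 2-cell embryos through the KO libraries alone. So did Gm45007, Gm15590, Gm7823 and Gm33700 in at least 1 comparison each.

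A second group followed the parent through opposite changes. Gm14494 rose in both oocyte comparisons and fell in the 2-cell embryos, where it had 180, 352, 467 and 224 FPKM in Het and 50.7, 77.3, 85.9 and 48.5 FPKM in KO (log2 change -2.15 ± 0.33, SE, adjusted p = 0.00074), with Tomm20 at -2.03. Gm5552, a copy of the polyamine acetyltransferase gene Sat1, changed by 2.45, 1.01 and -1.70 in the 3 comparisons and Sat1 by 2.3, 1.21 and -1.33. Apart from this group, AC113125.1, which fell in ZH KO oocytes while Lcp1 changed by 0.71, rose in CabZ KO 2-cell embryos, from 8.29 ± 4.07 to 54.0 ± 25 FPKM (SD, n = 4; adjusted p = 0.000941), beside 1.38 for Lcp1.

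**Figure D3:**
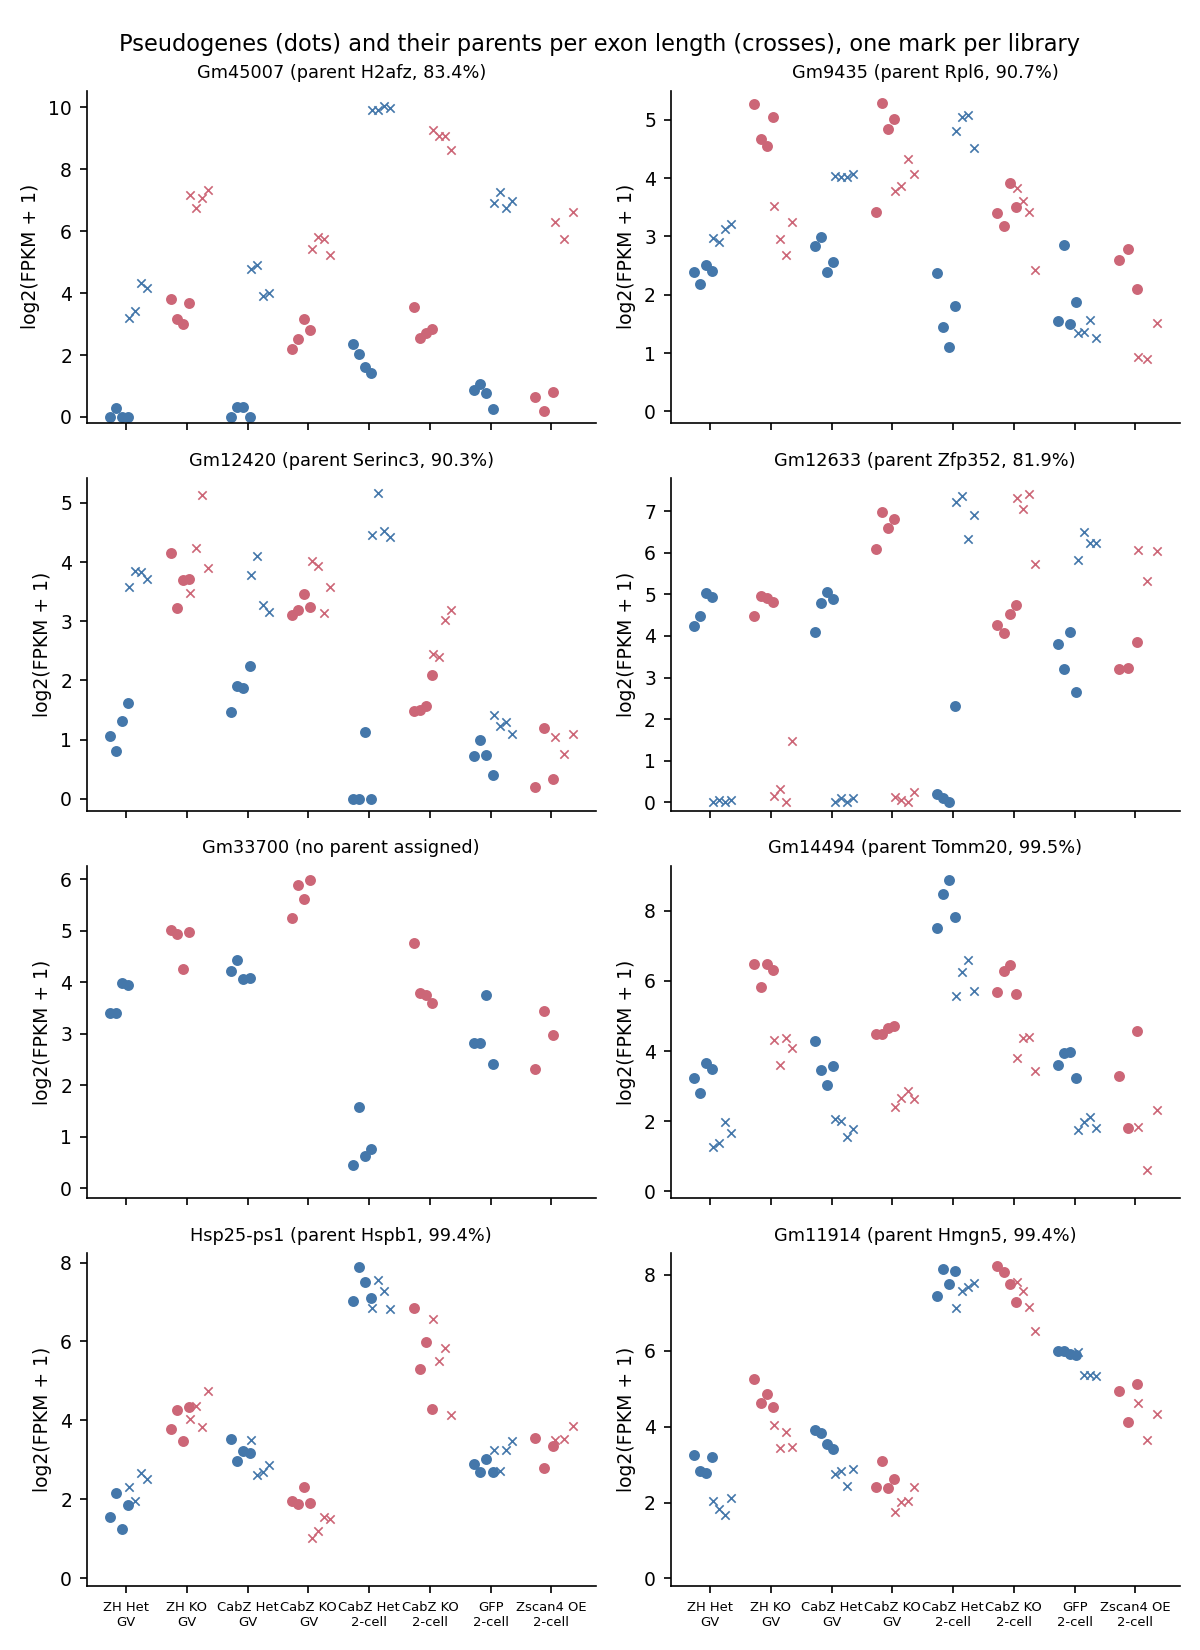
Levels of 8 named pseudogenes (dots) and of their parents per exon length (crosses) as log2(FPKM + 1), 1 mark per library (blue, Het or GFP; red, KO or Zscan4 OE). Dots and crosses move together for Gm14494, Hsp25-ps1 and Gm11914, while Gm9435 and Gm12420 are higher in KO in the 3 deletion comparisons and their parents are lower in CabZ KO 2-cell embryos.

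In most pairs the changes of pseudogene and parent were close. The correlation across genes (Pearson's r, a description, since the 2 share reads, libraries and often sequence) was 0.81 in ZH (n = 690), 0.62 in CabZ oocytes (n = 648), 0.73 in CabZ 2-cell embryos (n = 630) and 0.71 in the injected embryos (n = 494), and 586, 589, 446 and 443 pairs differed by under 0.5 on the log2 scale. For pairs with at least 95% identity r was 0.90, 0.77, 0.87 and 0.76, and for those under 95% it was 0.52, 0.27, 0.24 and 0.25. Of the called pseudogenes with a parent value, 132 of 137 in ZH, 24 of 31 in CabZ oocytes and 235 of 262 in CabZ 2-cell embryos changed in the direction of the parent. For 65 named cases the difference between pseudogene and parent was tested library by library with a two-sided exact permutation test, in which 4 against 4 libraries cannot go below p = 0.0286. It reached that value in 29 cases, Gm9435 in all 3 deletion comparisons among them, with an adjusted p of 0.064 over the 65, so no difference passed after adjustment. With this floor, the adjusted p depends on how many cases reached it. Many cases were named for large changes in these same libraries, so the result is a description and cannot decide whether a pseudogene and its parent differ.

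**Figure D4:**
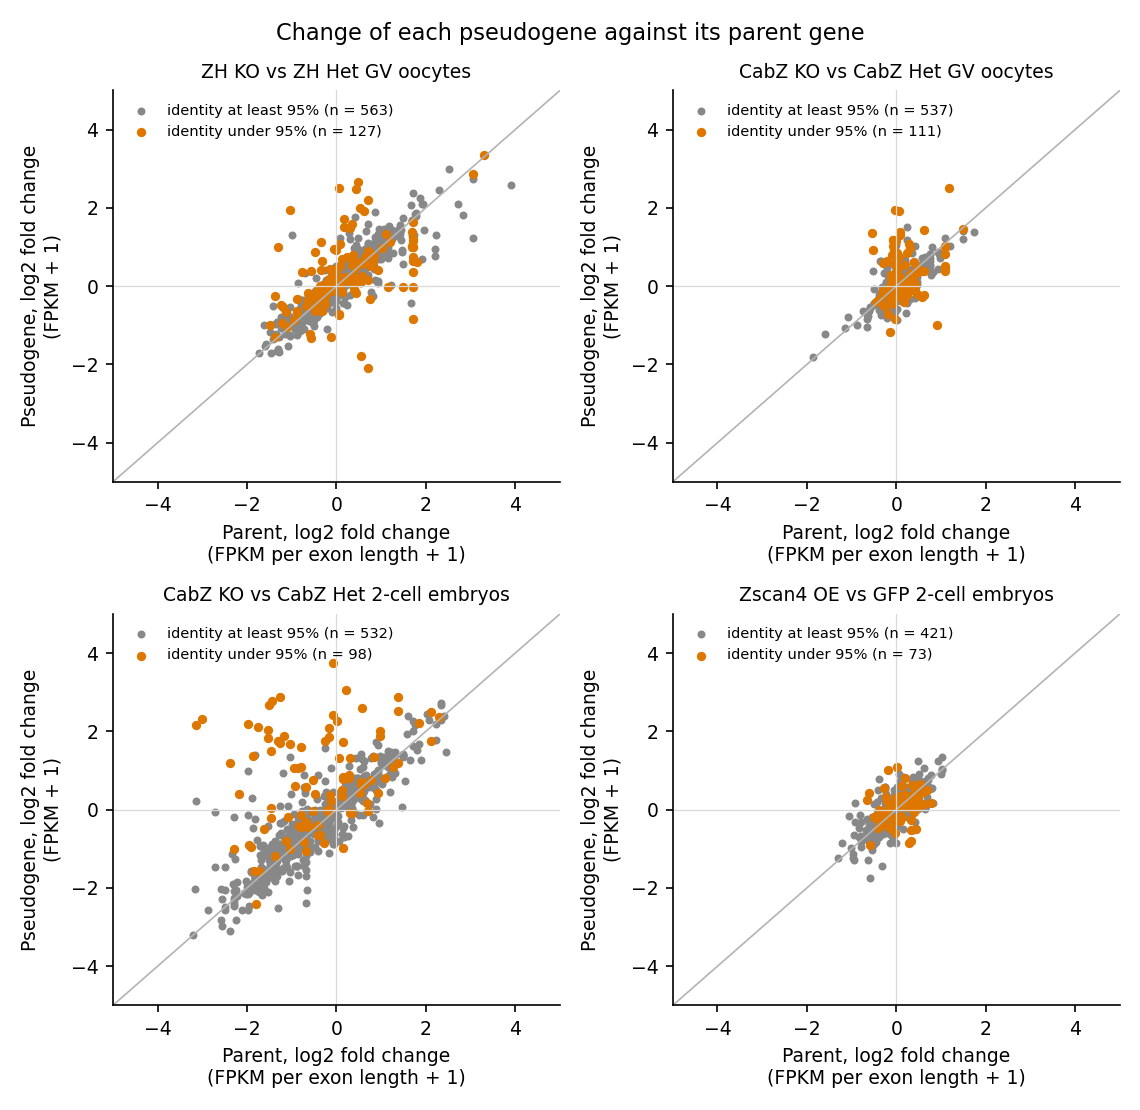
Log2 fold change of each pseudogene (vertical) against that of its parent per exon length (horizontal) in the 4 comparisons, with the line of equal change; grey, identity of at least 95%, orange, under 95%. Grey points lie along the line (r = 0.90 in ZH and 0.87 in CabZ 2-cell embryos), and orange points spread above it in the CabZ 2-cell embryos (r = 0.24).

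Several parents had more than 1 copy. All 4 copies of Rpl21 (99.2 to 99.6% identical) fell in the CabZ 2-cell embryos, by 1.68 to 2.03 on the log2 scale, and all 4 copies of Hmgb1 fell by 1.18 to 1.82. Of the 6 copies of Npm1, a nucleolar histone chaperone gene, 5 rose in ZH KO oocytes, and of the 6 copies of the translation initiation factor gene Eif1, 5 rose in CabZ KO 2-cell embryos, by 1.35 to 1.41. The 5 copies of Rpl6 (79.0 to 99.6% identical) differed among themselves: Gm9435 alone rose in ZH KO oocytes, and over the 5 the changes ranged from -0.73 to 2.51. The 11 copies of Gapdh (76.6 to 99.8% identical) ranged from -0.84 to 2.37 in ZH KO oocytes, where 5 of them rose and Gapdh rose by 1.71.

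Grouped by the function of the parent, the largest list was that of ribosomal protein parents, whose copies carry other symbols and so stayed among the 720. The shares over all genes were 10.5% risen and 7.2% fallen in ZH KO oocytes and 16.9% and 20.4% in CabZ KO 2-cell embryos, and counts with a common median follow in parentheses. In ZH KO oocytes 18 of the 81 members with ribosomal protein parents rose and none fell (16 and none), and in CabZ KO 2-cell embryos 7 of 73 rose and 38 fell (9 and 30). Its median log2 changes were 0.57 and -1.13, against -0.04 and -0.11 for all genes tested. Among its highest members, Gm10288, a copy of Rpl11, had 88.7 ± 13.5 FPKM in ZH Het and 142 ± 26.6 FPKM in ZH KO (SD, n = 4), a log2 change of 0.67, and Gm12918, a copy of Rpl13, changed by 0.18, so neither reached a fold of 2. In ZH KO oocytes the respiratory chain list had 4 of 21 higher and none lower (3 and none), among them Gm10250, a copy of the ATP synthase gene Atp5h (175 ± 44.4 to 393 ± 65.8 FPKM, SD, n = 4, adjusted p = 0.00111), and Gm10039, a copy of Atp5g1 (174 ± 39.2 to 360 ± 50.3 FPKM). Glycolysis had 5 of 17 higher and 2 lower (3 and 2), with Gm7336, a copy of Gapdh, rising from 8.24 ± 2.57 to 46.4 ± 11.1 FPKM and Gm4735, a copy of the enolase gene Eno1b, falling from 38.3 ± 6.6 to 13.0 ± 4.42 FPKM (SD, n = 4).

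Of the chaperone and isomerase list, 5 of 18 rose in ZH KO oocytes and 1 fell (3 and 1). Gm10123, whose sequence is that of the peptidyl-prolyl isomerase gene Ppia, had 99.2, 86.0, 143 and 168 FPKM in ZH Het and 464, 366, 375 and 594 FPKM in ZH KO (log2 change 1.87 ± 0.24, SE, adjusted p = 0.000229), beside 1.78 for Ppia. HMG and histone parents had 5 of 19 higher and 1 lower (5 and 3), with Gm37486, a copy of the H3.3 gene H3f3b, rising from 102 ± 7.84 to 247 ± 24.9 FPKM (SD, n = 4, adjusted p = 4.98e-05). Translation factors had 2 of 22 higher and none lower (none and 1), ubiquitin and proteasome parents 3 and 2 of 29 (1 and 3), cytoskeleton parents 1 and none of 9 (none and 2), and RNA binding and splicing parents 2 and none of 14 (1 and none). Among the last was Gm10052, the copy of Hnrnpa1, which rose from 131 ± 11.8 to 321 ± 96.9 FPKM (SD, n = 4). Hnrnpa1 had 10.6 to 13.4 FPKM per exon length in ZH Het and 15.8 to 20.3 in ZH KO, so the 2 differed in level and in size of change. In CabZ KO 2-cell embryos 7 of 14 RNA binding and splicing copies and 7 of 19 HMG and histone copies fell (5 and 3), and none and 2 rose (1 and 2). The other lists there had 5 higher and 6 lower of 18 translation factor copies (6 and 6), 1 and 9 of 28 ubiquitin and proteasome copies (5 and 8), 4 and 4 of 21 respiratory chain copies (5 and 4), 1 and 3 of 17 chaperone and isomerase copies (1 and 2), 2 and none of 7 cytoskeleton copies (3 and none) and 1 and none of 10 glycolysis copies (1 and none). In CabZ KO oocytes the lists had 0 to 4 members higher and 0 to 2 lower, and 2.07% and 0.836% of all genes were called. Ribosomal protein parents had 4 and 1 of 76, glycolysis 3 and none of 13 and HMG and histone parents 2 and 1 of 19. The respiratory chain list had 1 and none of 21, and the chaperone and isomerase list 1 and 2 of 18. The remaining lists had none, and a common median gave the same counts. No member had a parent on the list of oocyte and 2-cell genes, which did not hold Zfp352, the parent of Gm12633.

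ATAC-seq peaks, which mark open chromatin, were available for CabZ GV oocytes, 3 libraries per genotype, called by the authors in each library. A peak lay within 500 bp of the 5′ end in 14, 60 and 91 of the 720 pseudogenes in the Het libraries (1.94, 8.33 and 12.6%) and in 41, 12 and 14 in the KO libraries (5.69, 1.67 and 1.94%). The groups overlapped. For the starts of protein-coding genes the shares were 8.59, 17.6 and 32.2% in Het and 12.4, 3.74 and 4.91% in KO, so the pseudogenes had fewer peaks in every library, and the order of libraries followed the number of peaks called, which ranged from 19160 to 111327. No pseudogene had a peak in all 6 libraries and 580 had none. Only reads aligning to 1 place were kept by the authors, and the parts of near-identical copies that such reads cannot reach were not tested.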

How the data were processed

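RNA-seq libraries of GV oocytes and 2-cell embryos were amplified with Smart-seq2, which does not keep strand. According to the methods, reads were trimmed with TrimGalore, aligned to GRCm38/mm10 with STAR 2.5.3a and processed with Partek Flow. The ZH and Zscan4 tables hold FPKM deposited by the authors, which the values show to be per kilobase of the whole gene span, with 0.01 or 0.001 added. The CabZ tables hold a score that the authors made by dividing reads by the span a second time and adding 0.01, and FPKM was restored from the deposited coordinates. How reads that align to several places were counted is not given in the sources used here.

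The added constant was removed, and log2(FPKM + 1) was tested with limma 3.58.1 (R 4.3.3) between the groups of each table, over genes whose mean reached 1 FPKM, with Benjamini-Hochberg adjustment over all genes tested. The test was checked on simulated data in which only genes of higher level were changed, so calls on low pseudogenes were not covered. Count tests were not used, because too few values equal whole reads. Parents were the best blastn 2.17.0 hits to spliced GENCODE M21 transcripts of multi-exon protein-coding genes, with coverage of at least 50%, and parent levels were divided by exon length. Parent sequences printed are from those transcripts, pseudogene sequences from GRCm38.

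ATAC-seq peaks came from Bowtie2 2.3 and MACS2, called by the authors per library. The peak lists that the authors deposited give each peak a score, a fold enrichment (ratio), and p- and q-values as -log10, of which the -log10 q was used in an alternative. Precision is limited by depth: the median pseudogene had 28.0 to 118 reads in a library.

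The pseudogenes, parent lists and tests were chosen with earlier results of these data known. Named were the 10 highest, the 6 largest rises and 6 largest falls without overlap in each comparison, up to 12 called in several comparisons, their parents, and up to 3 of the highest of each parent list. Of these, 1 is not reported here. Libraries of 1 group differed by more than sampling noise (chi-square per gene of at least 7.43), so each counted once. Libraries with the same number in 2 groups shared only that number.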

Additional observations from a re-analysis of the deposited data

Results flagged for a closer look

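Each value here was set apart either by a lone library in a group of 4 (Dixon's gap test, which chance alone meets in about 1 of 20 groups, with 180 groups examined) or by opposite calls in 2 comparisons, a difference that was not itself tested. Gm11914 changed by 1.80 on the log2 scale in ZH KO and by -1.05 in CabZ KO oocytes, and Hsp25-ps1 by 2.26 and -1.21. Gm14494 changed by 1.00 in CabZ KO oocytes and by -2.15 in CabZ KO 2-cell embryos, and Gm5552 by 1.01 and -1.70. In all of these every KO library lay on 1 side of every Het library.

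Lone libraries in ZH Het oocytes were those of Gm45007 (0.213 FPKM in replicate 2, with no read in the others), Gm15590 (0.492 FPKM in replicate 4), Gm13835 (190 FPKM in replicate 4), Gm6180 (23.7 FPKM in replicate 2) and Gm7964 (141 FPKM in replicate 2). In ZH KO oocytes they were Gm4535 (28.6 FPKM in replicate 4), Gm33700 (18.1 FPKM in replicate 3) and Gm15387 (61.1 FPKM in replicate 3). In CabZ oocytes they were Dnajc19-ps (44.8 FPKM in Het replicate 3) and Gm5552 (10.2 FPKM in KO replicate 1). In CabZ 2-cell embryos they were Gm12633 (3.99 FPKM in Het replicate 4), Gm12420 (1.20 FPKM in Het replicate 3 and 3.28 FPKM in KO replicate 4) and Gm33700 (26.2 FPKM in KO replicate 1).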

How the results depend on the processing

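Settings tried were another pseudocount, other filters, other scalings, no fold limit, a replicate block and leaving out each library; of the values of named genes under these settings, 1243 kept their direction and side of the threshold, 64 no longer passed, 21 newly passed and none reversed. In ZH, a pseudocount of 0.1 gave 65 fallen pseudogenes, median scaling 61 fallen and a median log2 change of 0.051, and scaling to the reads of the table, chosen after seeing the data, a median of 0.34; without the fold limit 239 rose and 119 fell. In CabZ oocytes a filter at 5 FPKM gave 17 risen, and no fold limit 61 risen and 25 fallen. In CabZ 2-cell embryos the median was -0.43 with the filter at 5 FPKM and -0.020 with median scaling. In the libraries labelled Zscan4 OE, none fell without the filter (0) or with the block (0), 8 fell without the fold limit, and 1 rose with median scaling. Leaving out 1 library gave 91 to 122 risen, 32 to 48 fallen and medians of 0.16 to 0.22 in ZH, 21 to 31, 5 to 6 and -0.02 to 0.03 in CabZ oocytes, 103 to 118, 149 to 185 and -0.34 to -0.21 in CabZ 2-cell embryos, and 0 to 4, 0 to 5 and -0.13 to 0.052 in the injected embryos. There, none fell without replicate A, B or C of GFP, 4 rose and 1 fell without replicate A of Zscan4 OE, 1 fell without its replicate B and 5 fell without its replicate C. Of ATAC peaks with a -log10 q of at least 5, a mean of 1.16% of the pseudogenes had one in Het (0, 0.694 and 2.78% in replicates A, B and C) and 0% in each KO library, so Het replicate C carries the mean; protein-coding genes had 0.506, 2.74 and 12.6% in Het and 1.98, 0.246 and 0.287% in KO. Replicate numbers did not pair libraries (correlations of -0.41 to 0.40; 2, 1, 2 and 2 libraries correlated best with their own number), and the block gave 144, 32, 276 and 0 called pseudogenes. The cause of these shifts was not tested. Depth limits what can be seen of pseudogenes with few reads, and the SDs and SEs given measure the spread between libraries.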
